A study of Mus musculus with 90 samples.

Results

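Of the 10446 regions bound by the glucocorticoid receptor (GR) in livers of unfed mice, 3206 overlapped a region bound by FOXO1 and had no further shared region nearby. They are called isolated shared sites. A GR peak entered when it overlapped a FOXO1 peak by at least 1 bp on the same chromosome and when no midpoint of another such shared GR peak lay within 10 kb. The 3206 sites were 30.7% of all GR peaks and 62.9% of the 5098 GR peaks shared with FOXO1. The remaining 1892 shared peaks had a neighbour within 10 kb and are called clustered shared sites. The lists came from 1 condition, livers kept unfed until 2 hours into the dark phase (ZT14-unfed), with peaks kept by the authors when 2 replicate livers gave them, so binding in fed livers was not analysed here.

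GR is a nuclear receptor that enters the nucleus when it binds a glucocorticoid, and it holds DNA as a dimer on a palindrome known as the glucocorticoid response element (GRE). FOXO1 is a forkhead factor that binds DNA as a monomer, and insulin keeps it out of the nucleus through phosphorylation by AKT. In liver both are known for their part in fasting metabolism, when glucocorticoids are high and insulin is low.

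RNA came from livers of single mice trained to night-restricted feeding (NRF), in which chow was offered in the dark phase only. The uninjected and injected mice were C57BL/6N and the floxed GR mice were on that background, whereas the L-IRSdKO mice were on C57BL/6J, so the substrain differs between experiments. The uninjected, injected, and L-IRSdKO mice were 10 weeks old. Uninjected mice were taken at ZT14 after a meal or without one (n = 2 each), along with 2 unfed mice at ZT10. Injected mice received vehicle (PBS), 1 mg/kg of the synthetic glucocorticoid dexamethasone (dex), the insulin receptor antagonist S961, or dex with S961 before the dark phase and were fed, and a further vehicle group stayed unfed (n = 4 each). The GR knockout (L-GRKO) was Nr3c1 fl/fl mice given an adeno-associated virus with Cre, against the same floxed mice given a virus with GFP, all unfed at ZT14 (n = 4 each). Because the hepatocyte promoter TBG drives Cre, other liver cells keep the gene. The L-IRSdKO mice lacked Irs1 and Irs2 through Cre under the albumin promoter and were set against floxed mice without Cre, and every mouse of that experiment was fed and had received 1 mg/kg dex (n = 4 each). Lean and diet-induced obese (DIO) mice after 10 weeks on chow or high-fat diet (n = 3 per group) are given as levels only.

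Nr3c1 fell in L-GRKO livers, from 12.8 to 16.2 RPKM with GFP to between 3.93 and 5.35 RPKM with Cre (log2 difference -1.58 ± 0.12 SE, limma adjusted p = 6.8e-05). Irs1 fell in L-IRSdKO livers, from 2.21 to 4.73 RPKM in floxed mice to between 0.149 and 0.321 RPKM (-2.66 ± 0.25, limma adjusted p = 0.000916), whereas Irs2 overlapped between the groups at 0.272 to 1.00 and 0.614 to 5.61 RPKM (-0.79 ± 0.50, limma adjusted p = 0.308) and so does not check that label. The replicate 4 libraries of the injected mice deviated together from their groups, and L-IRSdKO replicate 1 stood apart from the other L-IRSdKO livers, so counts are given with and without them. With replicates 1 to 3 alone, 14 of 17 calls of genes named by the rule were kept for the meal with vehicle, 16 of 17 for dex, 12 of 14 for S961, and 38 of 38 for dex with S961. Without L-IRSdKO replicate 1, 44 of 44 were kept. The highest RPKM in any library of the L-IRSdKO experiment was 674 to 914, against at least 18853 in every one of the other libraries, lean and DIO mice included. In whole liver, fewer cells of a type and less RNA per cell cannot be told apart.

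The sequences under the sites show what GR and FOXO1 could read there. A full GRE is AGAACA, 3 bases of any kind, and TGTTCT. Searched in the 200 bases around each GR midpoint on both strands, it was present without a mismatch at 13 isolated sites (0.405%). Among 83592 DNase hypersensitive sites (DHSs), which are stretches of open chromatin, 14 held it in the 200 bases around the DHS midpoint (0.0167%). DHS windows are centred in this way throughout and do not cover whole DHSs. They are thus not centred like those of the GR peaks, and the part of the centring in these differences was not tested. Clustered shared sites held it in 3 cases (0.159%), and the difference of 0.247 points (interval -0.103 to 0.552) did not tell these classes apart. GR peaks without FOXO1 held it at 3 of 3972 in a DHS (0.0755%) and at 11 of 1376 outside DHSs (0.799%). The full GRE was thus not particular to isolated sites. Some of the 13 are shown because they are the clearest GR sequences in the set, chosen after their values were seen. They are from the plus strand of mm9, with the bases of the palindrome in capitals and the nearest gene as the name.
Zbtb20, intron, chr16:42999259-42999287: tgttctcAGAACAtttTGTTCTgaagata
Fkbp5, intron, chr17:28579357-28579385: aaagcctAGAACAagcTGTTCTcaaacaa
Mapk13, intergenic, chr17:28898087-28898115: tgaccctAGAACAaaaTGTTCTagtctag
Angptl4, UTR, chr17:33911834-33911863: agAGAACAaaaTGTTCTgaggttgttttta
Acnat2, intergenic, chr4:49421104-49421132: ttggaagAGAACAttgTGTTCTgctttgt
Alb, intergenic, chr5:90853870-90853898: tctgctcAGAACAccaTGTTCTtatctca
Cyp2b10, intergenic, chr7:26669465-26669493: aggactgAGAACAagaTGTTCTgccaata
Their midpoints lay 123290 bp from the TSS of the named gene at Zbtb20, 75094 bp at Fkbp5, 8156 bp at Mapk13, and 6710 bp at Angptl4. At Acnat2 the distance was 71 bp, at Alb 36061 bp, and at Cyp2b10 13169 bp. The centre of the GRE lay 11 bp from the GR midpoint at Zbtb20, 4 bp at Fkbp5, and 33 bp at Angptl4. The site nearest to Tulp1 with such a palindrome lies in an intron of Fkbp5 as well, 55157 bp from the Tulp1 TSS, so that Fkbp5, which encodes a chaperone of GR, holds both. Angptl4, an inhibitor of lipoprotein lipase, is the only one of the 13 sites whose window also held a forkhead word, with centres 57 bp apart.

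The forkhead word searched was TGTTTAC, which reads GTAAACA on the opposite strand. Only 2 sites of genes named by the rule for this report, those at Angptl4 and Pnpla2, held a GRE match and a forkhead match together. At Pnpla2, which encodes the triglyceride lipase ATGL, the forkhead word is directly followed by a GRE match with 2 mismatches, and the whole window is shown with both in capitals. The site lies in an intron, 1051 bp from the TSS, and outside every listed DHS.
Pnpla2, chr7:148642048-148642247: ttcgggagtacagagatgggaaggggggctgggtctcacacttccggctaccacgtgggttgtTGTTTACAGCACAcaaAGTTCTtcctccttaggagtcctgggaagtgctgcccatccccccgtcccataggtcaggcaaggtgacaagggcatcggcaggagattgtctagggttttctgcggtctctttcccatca
Further matches are shown at genes whose RNA is described later, for GRE matches with 1 or 2 mismatches and then for the forkhead word.
Per1, intron, chr11:68910571-68910599: agccaagAGAACAcgaTGTTCCctagtgc
Arrdc2, intergenic, chr8:73322381-73322409: gacgcacCGAACAaaaTGTTCTttgagct
Setdb2, intron of Cab39l, chr14:60064452-60064480: gtacttgACAACAttgTGTTGTgtcaaaa
Ehhadh, intron, chr16:21783087-21783115: cccagagaaaaGTAAACAggacctctcct
Sesn1, UTR, chr10:41530391-41530419: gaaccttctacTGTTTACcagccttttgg

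The isolated sites were spread over 21 chromosomes, with the most on chromosome 1 (218 sites), 30 on X, and 2 on Y. The GR peaks of these sites and the FOXO1 peaks they overlapped were all 180 bp long, and each site overlapped 1 FOXO1 peak. The overlap had a median of 150 bp (quartiles 124 and 166), and 91.5% of sites overlapped by at least 90 bp. At the edge of the rule, 1 site overlapped by 1 bp, 10 sites by at most 10 bp, and 28 sites in full. The midpoints of the GR and FOXO1 peaks were a median of 30 bp apart (quartiles 14 and 56), with 37.0% within 20 bp and 70.4% within 50 bp. Clustered shared sites had the same median of 30 bp.

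The next shared site was 10005 bp away for the least isolated site, a median of 65688 bp (quartiles 24260 and 232490), and 11824187 bp for the most isolated. Just inside the limit of 10 kb lay 78 isolated sites with a neighbour at 10 to 11 kb, and just outside it lay 91 clustered sites with one at 9 to 10 kb. Being isolated from shared sites did not mean being alone. Within 10 kb, 27.5% of isolated sites had a GR peak without FOXO1 and 14.3% had a FOXO1 peak without GR, while 63.4% had neither. Within 5 kb they had a mean of 1.61 DHSs, against 2.09 for clustered sites.

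Most isolated sites lay in open chromatin. A DHS overlapped 90.3% of them (95% Wilson interval 89.2 to 91.3), against 87.6% of clustered shared sites, a difference of 2.67 percentage points (95% Newcombe interval 0.897 to 4.51). Such intervals cover counting error over sites only. Where the overlap had to reach 0.5 of the peak's length, the share was 71.4%.

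Isolated sites lay near a promoter less often than FOXO1 peaks without GR. Promoter windows of 2 kb around the transcription start site (TSS) held 510 isolated sites (15.9%, 95% Wilson interval 14.7 to 17.2). The share differed little from that of clustered shared sites (difference -1.53 points, 95% Newcombe interval -3.69 to 0.565) and of GR peaks in a DHS without FOXO1 (-0.809 points, -2.52 to 0.917). It was 24.1 points below that of FOXO1 peaks in a DHS without GR (difference -24.1, interval -26.4 to -21.9). The median distance to the nearest TSS was 13127 bp for isolated sites (quartiles 3906 and 36945), 5538 bp for FOXO1 peaks in a DHS without GR, and 11252 bp for all DHSs. Within 0.5 kb of a TSS lay 6.61% of isolated sites and 30.8% of the FOXO1 peaks without GR. By the annotation, 49.8% of isolated sites lay in introns, 45.8% between genes, 2.34% in UTRs, 1.06% in noncoding exons, and 0.967% in coding sequence, and 605 sites (18.9%) were over 50 kb from any TSS. The GC content had a median of 44.5% at isolated sites and 49.0% at FOXO1 peaks in a DHS without GR.

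**Figure D1:**
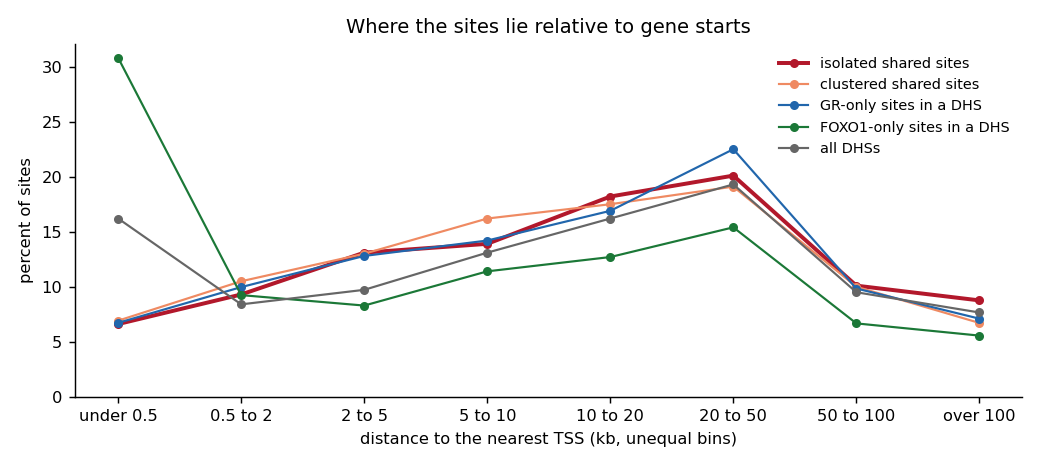
Percent of sites (y axis) by distance of the peak midpoint to the nearest TSS in kb (x axis, binned), with a line for each class of site. Isolated shared sites have 6.61% within 0.5 kb, where FOXO1 peaks in a DHS without GR have 30.8%.

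GRE matches set the isolated sites apart from FOXO1 peaks without GR, and forkhead matches set them apart from GR peaks without FOXO1. A GRE match allowed 2 mismatches among the 12 bases of the palindrome, and 273 isolated sites (8.52%, 95% Wilson interval 7.60 to 9.53) held one. FOXO1 peaks in a DHS without GR, with windows centred on FOXO1, held one in 1.03% (difference 7.48 points, 95% Newcombe interval 6.46 to 8.55), and all DHSs in 1.94%. With isolated sites centred on the FOXO1 midpoint as well, a choice made after seeing the data, 7.61% of them held one. The difference from those FOXO1 peaks was then 6.58 points (5.60 to 7.60). The share at isolated sites differed little from that at clustered shared sites, 7.56% (0.957 points, -0.617 to 2.46), and at GR peaks in a DHS without FOXO1, 8.79% (-0.271 points, -1.57 to 1.05). GR peaks outside DHSs without FOXO1 held a match in 20.9%. Among the isolated sites themselves, the 311 outside DHSs held a match in 13.5% and those inside in 7.98%.

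The forkhead word stood at 428 isolated sites (13.3%, 95% Wilson interval 12.2 to 14.6), with all DHSs at 5.16%. GR peaks in a DHS without FOXO1 held it in 2.97% (difference 10.4 points, 95% Newcombe interval 9.11 to 11.7). It was less frequent than at FOXO1 peaks in a DHS without GR, 24.3% (-11 points, -13.0 to -9.00). The windows of the last class are centred on FOXO1. With isolated sites centred on the FOXO1 midpoint as well, a choice made after seeing the data, their share was 15.4% (14.2 to 16.7) and the difference -8.91 points (-11 to -6.87). Clustered shared sites, at 11.9%, differed from isolated ones by an interval that includes 0 (1.40 points, -0.506 to 3.25).

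Both kinds of match stood in 33 isolated sites (1.03%), where the product of the separate shares would give 36.4 sites. In those 33 windows the centres of the nearest pair of matches were 10 to 159 bp apart, with a median of 54 bp, and 13 sites had them within 30 bp. Most sites, 2538 (79.2%), held neither. By the best-fitting palindrome in the window, 54 sites had 1 mismatch, 206 had 2, 610 had 3, and 1336 had 4. The share of sites called a GRE match thus turned on the mismatches allowed, from 2.09% at no more than 1 to 27.5% at no more than 3.

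At isolated sites, GRE matches lay closer to the GR midpoint than forkhead words did. Distances were taken in the 400 bases around the midpoint, where 343 isolated sites held a GRE match and 598 the forkhead word. The GRE match nearest to the GR midpoint was a median of 21 bp from it, with 56.0% within 25 bp. The forkhead word was a median of 58 bp from it, with 25.3% within 25 bp. At FOXO1 peaks in a DHS without GR, the word was a median of 30 bp from the FOXO1 midpoint, with 44.2% within 25 bp. That value is not measured from the same midpoint, and the distance from the FOXO1 midpoint is not given for isolated sites. In the windows of 200 bases, sites whose midpoints were at most 20 bp apart held the forkhead word in 15.7%. Those 21 to 50 bp apart held it in 13.1%, and those farther apart in 10.7%. The GRE share was 8.95%, 8.40%, and 8.11% in the same order. The base after TGTTTAC was A in 37.5% of matches, T in 36.6%, C in 22.1%, and G in 3.84%. In all DHSs these shares were nearly the same, at 37.5%, 36.9%, 21.8%, and 3.85%.

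**Figure D2:**
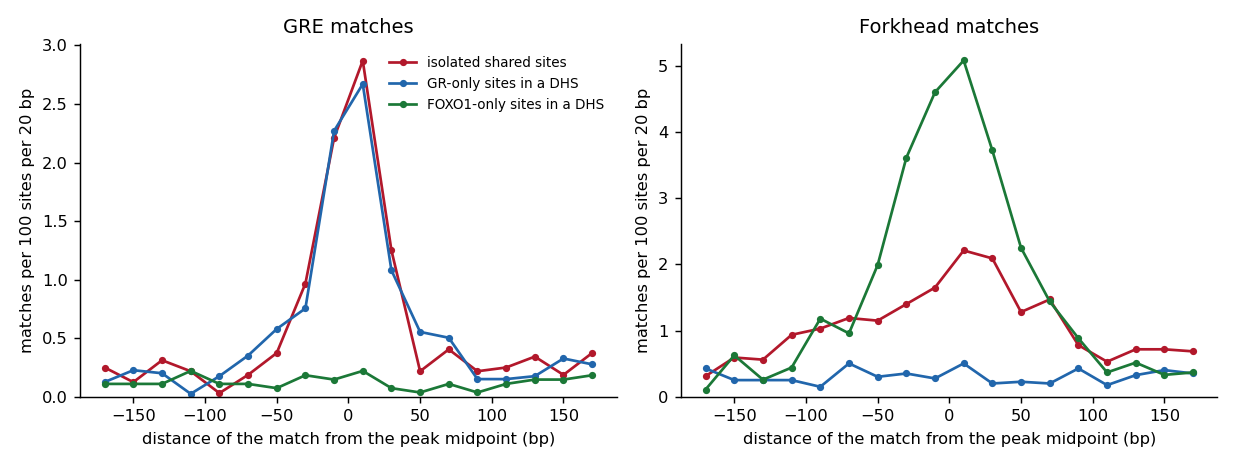
Matches per 100 sites in bins of 20 bp (y axis) by distance from the peak midpoint in bp (x axis), for the GRE and the forkhead word at isolated shared sites, GR peaks without FOXO1, and FOXO1 peaks without GR, the latter 2 in DHSs. In the first 20 bp, isolated sites have 2.87 GRE matches and 2.21 forkhead words per 100 sites, and FOXO1 peaks without GR have 0.221 and 5.08.

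Of the other words searched, the C/EBP word TTGCNNAA was the most frequent. C/EBP factors are abundant in hepatocytes and bind beside many liver enhancers. It stood in 34.9% of isolated sites and 34.1% of GR peaks in a DHS without FOXO1, and in 15.4% both of FOXO1 peaks in a DHS without GR and of all DHSs. One arm of the GRE alone, TGTTCT, stood in 27.7% of isolated sites and 16.8% of all DHSs. The HNF4 word CAAAGTCCA stood in 2.31% and 1.25%, and the cAMP response word TGACGTCA in 0.437% and 0.569%.

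Of 22173 genes with a position, 3209 (14.5%) had an isolated shared site and no clustered one within 50 kb of the TSS, and they are called isolated-site genes. Of these, 2618 had 1 such site, 505 had 2, 75 had 3, and 11 had 4, the last including Cebpa, a hepatocyte differentiation factor, Nr1h4, the bile acid receptor, and Dgat2 and Gpam, enzymes of triglyceride synthesis. The nearest site was upstream of the TSS for 1600 genes and downstream for 1609, at a median of 20780 bp. Many sites had no gene or several, with 1117 sites near no positioned gene by this rule, 1128 near 2 or more, and the rest near 1, so a gene near a site is not shown to be its target. A mean of at least 0.5 RPKM was reached by 73.8% of isolated-site genes, 81.4% of genes with a clustered site, and 45.6% of genes with no shared site, and the median levels were 9.03, 16.1, and 5.12 RPKM among those expressed.

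RNA was compared with limma on log2(RPKM + 0.5) over all genes, with p-values adjusted over all of them. Genes were called at an adjusted p under 0.01 for the meal in uninjected mice and under 0.05 elsewhere. The counts set isolated-site genes beside all genes tested, as a description. Because RPKM divides by the whole library, the median log2 difference of all genes was not 0 but 0.12, 0.10, -0.10, -0.08, -0.14, 0.08, and 0.03 in the 7 comparisons as they follow here. The split after median-ratio scaling, which brought each of these medians to within 0.02 of 0, is therefore given beside it.

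A meal in uninjected mice raised 22 and lowered 19 of 2227 isolated-site genes (0.988% and 0.853%), where 0.568% and 0.422% of all genes were called, and after scaling 16 rose and 26 fell (all genes 0.367% and 0.504%). In vehicle-injected mice the meal raised 50 and lowered 23 of 2278 (2.19% and 1.01%, all genes 2.55% and 0.578%), after scaling 23 and 34 (all genes 1.13% and 0.818%), and with replicates 1 to 3 alone 103 and 52 (4.52% and 2.28%, all genes 4.88% and 1.5%). The share that rose there was thus near that of all genes, and the share that fell was above it. The summed level of 7 Kupffer cell markers did not overlap in that comparison, at 72.3 to 106 RPKM fed and 51.5 to 63.7 unfed. In the uninjected mice the sums of 8 hepatocyte markers, at 31222 to 34372 RPKM fed and 38100 to 38605 unfed, of 6 endothelial markers, at 52.2 to 58.5 and 62.4 to 67.1, and of 6 stellate cell markers, at 65.4 to 71.5 and 78.5 to 80.5, did not overlap either. In no comparison was a listed marker at 0 in every library. The part of these cells in the counts was not tested.

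Dex in fed mice raised 41 and lowered 61 isolated-site genes (1.80% and 2.68%, all genes 1.00% and 2.19%), after scaling 53 and 30 (all genes 1.36% and 1.06%), and with replicates 1 to 3 alone 79 and 155 (all genes 2.07% and 5.22%). S961 in fed mice raised 39 and lowered 26 (1.71% and 1.14%, all genes 0.942% and 0.960%), after scaling 45 and 18 (all genes 1.16% and 0.649%), and with replicates 1 to 3 alone 36 and 23 (all genes 0.987% and 0.978%). Dex with S961 raised 121 and lowered 180 (5.31% and 7.90%, all genes 2.70% and 7.90%), after scaling 165 and 77 (all genes 3.75% and 3.40%), and with replicates 1 to 3 alone 149 and 182 (all genes 3.24% and 8.24%). The share that fell equalled that of all genes in the deposited scale. Here too Kupffer marker sums did not overlap, at 55.1 to 64.3 RPKM with dex and S961 and 72.3 to 106 with vehicle, and their part was not tested. All 4 comparisons of injected mice share the fed vehicle group.

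Loss of GR in unfed mice raised 168 and lowered 103 of 2321 isolated-site genes (7.24% and 4.44%, all genes 4.46% and 2.22%), and after scaling 97 rose and 152 fell (all genes 2.54% and 3.15%). Loss of Irs1 and Irs2 in fed mice given dex raised 268 and lowered 296 of 2475 (10.8% and 12%, all genes 9.06% and 8.31%), after scaling 253 and 324 (all genes 8.66% and 9.20%). Without L-IRSdKO replicate 1 it raised 372 and lowered 413, while the shares of all genes went up too, to 11.7% and 11.6%. Cholangiocyte marker sums did not overlap in that comparison, at 7.87 to 13.9 RPKM in L-IRSdKO livers and 19.7 to 46.2 in floxed livers, and their part was not tested. Genes with a clustered shared site had higher shares than isolated-site genes of calls upward with dex and S961 (10.3%) and downward in L-GRKO livers (10.2%).

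The closer the nearest isolated site, the larger the share of genes called in several comparisons but not in all. In L-GRKO and L-IRSdKO livers this was so in both directions. With a site within 5 kb, 9.51% of genes rose with dex and S961, with one at 5 to 20 kb 6.41%, and with one at 20 to 50 kb 2.71% (after scaling 12.3%, 8.87%, and 3.92%). Of all genes, 2.70% rose there. In L-GRKO livers 8.60%, 3.79%, and 3.07% fell (after scaling 11.5%, 6.64%, and 4.34%), and 8.81%, 7.86%, and 6.15% rose (after scaling 5.24%, 4.74%, and 3.35%). Of all genes, 2.22% fell and 4.46% rose in L-GRKO livers. In L-IRSdKO livers 14.7%, 11%, and 9.16% rose and 14.3%, 12.5%, and 10.7% fell (all genes 9.06% and 8.31%). The share that fell with dex and S961 did not follow this order, at 5.71%, 8.73%, and 8.30%. In vehicle-injected mice the share that rose with the meal ran in reverse, at 1.27%, 1.91%, and 2.80%, and 1.27%, 1.36%, and 0.653% fell. Rises with the meal in uninjected mice (0.868%, 0.702%, and 1.23%) and with dex (2.11%, 2.32%, and 1.31%) did not follow the order either. Nor did falls with dex (3.17%, 3.55%, and 1.87%) and with S961 (1.06%, 1.36%, and 1.03%). Genes whose nearest site held a GRE match fell in L-GRKO livers in 22 of 208 cases (10.6%), and the other genes in 3.83% (after scaling 16.8% and 5.54%). With dex alone 4.27% of the genes with a GRE match rose and 1.55% of those without (after scaling 4.27% and 2.13%). Genes with a forkhead word at the nearest site rose in L-IRSdKO livers in 13.6%, and the others in 10.4%, while 8.74% and 12.4% fell. With S961 1.82% of genes with the word and 1.70% of the others rose. With dex and S961 these shares were 5.45% and 5.29% (after scaling 7.64% and 7.19%). With dex alone they were 0.364%, which is 1 of 275 genes, and 2.00% (after scaling 1.45% and 2.45%). These shares are descriptions without a test, since genes near 1 site share it.

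**Figure D3:**
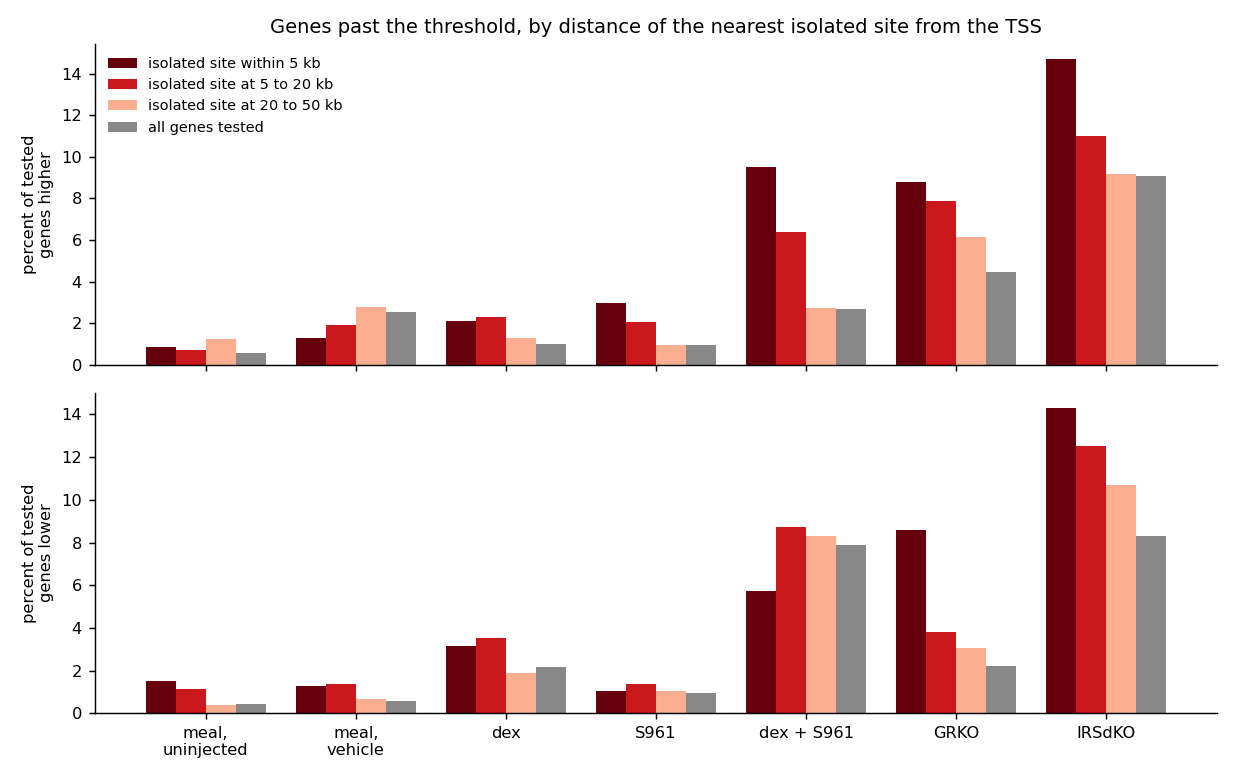
Percent of tested genes called higher (upper panel) and lower (lower panel) in 7 comparisons (x axis), for genes whose nearest isolated shared site lies within 5 kb, at 5 to 20 kb, or at 20 to 50 kb, and for all genes in grey. With dex and S961 the share called higher is 9.51%, 6.41%, and 2.71% in that order, against 2.70% of all genes.

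Among genes near isolated sites that fell with the meal, Ip6k2 and Angptl4 did so in both feeding experiments. Ip6k2, an inositol hexakisphosphate kinase with a site in its intron 11649 bp from the TSS, was at 14.2 and 14.4 RPKM in uninjected unfed mice and at 1.58 and 1.62 RPKM in fed mice. The fed mice lie far below the unfed ones (log2 difference -2.82 ± 0.11 SE, limma adjusted p = 8.3e-05). In vehicle-injected mice Ip6k2 was at 26.4, 26.3, 19.7, and 17.0 RPKM unfed and at 5.53, 6.16, 6.26, and 6.74 RPKM fed (-1.76 ± 0.24, limma adjusted p = 0.00288). It rose with dex and S961 (1.10 ± 0.24, limma adjusted p = 0.00690) and in L-IRSdKO livers (1.19 ± 0.14, limma adjusted p = 0.00204) and fell in L-GRKO livers (-1.22 ± 0.18, limma adjusted p = 0.00380). In these 5 comparisons the compared groups did not overlap, and no single library was needed for the call.

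Angptl4, with the GRE shown above and a forkhead word in the same window, was at 72.6 and 121 RPKM unfed and at 14 and 14.1 RPKM fed in uninjected mice (-2.70 ± 0.21, limma adjusted p = 0.00158). Vehicle-injected mice had 87.6, 105, 95.9, and 77.8 RPKM unfed and 30.5, 21.7, 38.8, and 37.4 RPKM fed (-1.52 ± 0.28, limma adjusted p = 0.00794). S961 brought fed mice to 86.7, 118, 68.7, and 135 RPKM (1.64 ± 0.28 against fed vehicle, limma adjusted p = 0.00561), which overlaps the unfed vehicle mice in range. Dex with S961 gave 99.2, 125, 105, and 125 RPKM (1.84 ± 0.28, limma adjusted p = 0.000556), while for dex alone the difference was -0.05 (limma adjusted p = 0.952). In L-GRKO livers it was -1.17 (limma adjusted p = 0.108), which did not pass. In L-IRSdKO livers Angptl4 rose by 0.34 (limma adjusted p = 0.0225), a call kept without 4 of 8 libraries. Depp1, a FOXO target tied to autophagy, has its site 157 bp from the TSS in an intron of Rassf4. It fell from 10.6 and 12.5 to 0.443 and 1.02 RPKM in uninjected mice (-3.33 ± 0.37, limma adjusted p = 0.00628) and from 25.5, 21.9, 13.4, and 5.79 to 1.42, 0.669, 2.01, and 1.74 RPKM in vehicle-injected ones (-2.99 ± 0.41, limma adjusted p = 0.00288). In L-IRSdKO livers Depp1 rose to 50.5, 99.3, 151, and 161 RPKM, from 6.89, 17.3, 7.85, and 15.9 in floxed livers (3.19 ± 0.41, limma adjusted p = 0.00329).

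Lpin2, a phosphatidate phosphatase of glycerolipid synthesis, and Ccng2, an atypical cyclin, fell with the meal in both experiments as well. Lpin2 went from 102 and 140 to 18.6 and 18.3 RPKM in uninjected mice (-2.66 ± 0.17, limma adjusted p = 0.000893). Irs2, an adaptor of the insulin receptor with a site at 34234 bp, went from 3.27 and 4.47 to 0.511 and 0.685 RPKM (-1.98 ± 0.16, limma adjusted p = 0.00184), and in vehicle-injected mice its call (-1.41 ± 0.35, limma adjusted p = 0.0350) was kept without 1 of 8 libraries and lost without any of the other 7. The microRNA gene Mir294 was listed at 0 in both fed mice and at 3.14 and 2.92 RPKM unfed, and is uncertain because the RNA is short. In uninjected mice 1 of 14 named calls, that of Ip6k2, was kept without every library in turn, since the others were lost without either fed mouse.

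Genes that rose with the meal included Gadd45a. Gadd45a, a stress-induced regulator of the cell cycle, shares 19.1% of its exon bases with another annotated gene, and it was at 0.406 and 0.423 RPKM unfed and 2.69 and 3.16 RPKM fed (1.90 ± 0.12, limma adjusted p = 0.00102). It rose in vehicle-injected mice too (1.49 ± 0.26, limma adjusted p = 0.00674).

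Cxcl1, a chemokine that draws neutrophils, and Fzd7, a Wnt receptor, were among the other genes with the largest rises in uninjected mice. Cxcl1 went from 1.05 and 0.610 to 10.4 and 5.38 RPKM (2.61 ± 0.31, limma adjusted p = 0.00700), whereas in vehicle-injected mice it was at 23.5, 25.6, 13.5, and 19.7 RPKM unfed and 4.75, 26.0, 44.6, and 16.3 RPKM fed (-0.19 ± 0.70, limma adjusted p = 0.920). In vehicle-injected mice Angptl8, an insulin-responsive regulator of lipoprotein lipase, had the largest rise, from 5.23, 5.24, 14.4, and 26.1 to 52.2, 40.3, 64.2, and 99.9 RPKM (2.52 ± 0.44, limma adjusted p = 0.00607). Hyou1, a chaperone of the endoplasmic reticulum, rose from 18.6, 18, 18.4, and 31.1 to 44.8, 55.2, 53.4, and 73.7 RPKM (1.40 ± 0.28, limma adjusted p = 0.0127). Its call was lost without unfed vehicle replicate 2, and its nearest site is also that of Slc37a4.

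Dex in fed mice raised Fam107a, Cdkn1a, Jaml, and Cyp2b10. Fam107a, an actin-associated protein that glucocorticoids are known to induce, has its site in an intron at 13825 bp. It was at 8.24, 4.12, 10.2, and 4.36 RPKM with vehicle and at 47.6, 25.3, 31.0, and 23.9 RPKM with dex (2.21 ± 0.25, limma adjusted p = 0.000110), with no overlap. Cdkn1a, the cyclin-dependent kinase inhibitor p21, rose from 7.80, 3.62, 9.87, and 8.70 to 29.4, 33.4, 25.7, and 20.9 RPKM (1.86 ± 0.34, limma adjusted p = 0.00467). Cyp2b10, a drug-metabolising cytochrome P450 with a full GRE at its site, rose from 2.44, 1.35, 4.62, and 4.18 to 8.19, 40.6, 19.8, and 10.1 RPKM (2.30 ± 0.49, limma adjusted p = 0.0128), and the call was lost without dex replicate 2 or vehicle replicate 2. Jaml, a leukocyte adhesion receptor, shares 16.2% of its exon bases with a neighbour and rose by 1.99 ± 0.32 (limma adjusted p = 0.00172).

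Downward, dex moved Cldn1, Gadd45a, the histone gene H1f2, and the noncoding RNA Neat1. Cldn1, a tight junction protein, was at 6.93, 6.14, 4.02, and 6.14 RPKM with vehicle and at 1.97, 1.90, 2.03, and 1.42 RPKM with dex (-1.42 ± 0.22, limma adjusted p = 0.00148). Gadd45a, which the meal raised, fell from 2.08, 5.75, 4.06, and 3.03 to 1.21, 1.51, 0.607, and 1.13 RPKM (-1.35 ± 0.26, limma adjusted p = 0.00773). Neat1 fell by 1.70 on the log2 scale (limma adjusted p = 0.0311) and kept its call without 3 of 8 libraries.

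Of 14 tested isolated-site genes of fatty acid oxidation and ketone formation, 6 rose with S961, none fell, and 8 were not called (median log2 difference 0.50, all genes -0.08), where 0.942% of all genes rose. In the whole list 9 of 27 tested genes rose and none fell. Plin2, which coats lipid droplets, went from 79.8, 70.2, 105, and 88.2 to 163, 330, 231, and 287 RPKM (1.52 ± 0.21, limma adjusted p = 0.00104). Ehhadh, a peroxisomal enzyme with the forkhead word shown above, went from 102, 89.0, 78.0, and 61.3 to 147, 219, 204, and 264 RPKM (1.32 ± 0.23, limma adjusted p = 0.00540). Both genes were apart between the groups. Lpin2, which is in the list of fat use although its enzyme also serves glycerolipid synthesis, rose by 0.84 ± 0.19 (limma adjusted p = 0.0246). Fgf21, a fasting hormone, was at 0.539, 0, 0.0850, and 0.230 RPKM with vehicle and at 1.41, 2.37, 4.55, and 8.44 RPKM with S961 (2.53 ± 0.44, limma adjusted p = 0.00561).

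Fbf1 and G0s2 were the other large rises with S961. Fbf1, a protein of the cilium base, went from 0.808, 1.07, 1.57, and 1.85 to 4.24, 20.7, 2.23, and 28.1 RPKM (2.40 ± 0.54, limma adjusted p = 0.0261). The S961 mice ranged widely here, and the call was kept without 3 of 8 libraries and lost with replicates 1 to 3 alone (2.00 ± 0.55, limma adjusted p = 0.0873). G0s2, an inhibitor of ATGL, rose by 2.16 ± 0.53 (limma adjusted p = 0.0399), kept without 2 of 8. In L-IRSdKO livers, from fed mice given dex, G0s2 fell instead (-1.87, limma adjusted p = 0.00688). That call was kept without each of the 8 libraries in turn.

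Of 13 isolated-site genes in the lipid synthesis list, 4 fell with S961, 1 rose, and 8 were not called (median -0.05, all genes -0.08). In the whole list 6 of 26 tested genes fell and 1 rose, and of all genes 0.960% fell and 0.942% rose. Insig1, a sterol sensor, fell from 73.1, 90.8, 50.5, and 49.0 to 23.3, 31.5, 19.0, and 34.2 RPKM (-1.26 ± 0.19, limma adjusted p = 0.00201). S1pr1, a receptor for sphingosine 1-phosphate, fell from 24.5, 24.9, 17.9, and 22.8 to 11, 5.87, 9.89, and 7.59 RPKM (-1.37 ± 0.20, limma adjusted p = 0.00168), with its site 33491 bp from the TSS. The gene of that list that rose was Elovl5, a fatty acid elongase (1.11 ± 0.22, limma adjusted p = 0.0104).

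Dex with S961 had more calls among these genes than either agent alone, though no test of that difference was made. Setdb2, a histone methyltransferase family member, was at 7.62, 5.33, 6.01, and 8.13 RPKM with vehicle and at 52.0, 52.5, 43.4, and 59.5 RPKM with dex and S961 (2.86 ± 0.24, limma adjusted p = 1.3e-06). With dex alone Setdb2 was at 29.4, 12.4, 17.6, and 32.4 RPKM (1.61 ± 0.24, limma adjusted p = 0.00119), below every mouse given both. Cdkn1a reached 42.8, 64.6, 32.8, and 76.2 RPKM (2.78 ± 0.34, limma adjusted p = 5.6e-05), and Fam107a 38.9, 34.7, 43.9, and 45.1 RPKM (2.60 ± 0.25, limma adjusted p = 6.4e-06). Of 11 isolated-site genes from a list of GR targets, 8 rose and none fell (median 1.15, all genes -0.14), against 4 with dex alone (median 0.77) and 1 with S961 alone (median 0.17). Of all genes, 2.70% rose with both agents, 1.00% with dex, and 0.942% with S961. In the whole list 22 of 28 tested genes rose with both agents, 16 with dex, and 1 with S961. The counts are thus not particular to genes near isolated sites. Arrdc2, an arrestin-domain protein with a GRE match at 41227 bp, is one of the 8 and went from 3.66, 3.25, 3.86, and 4.23 to 14.4, 12.8, 12.4, and 14.5 RPKM (1.73 ± 0.29, limma adjusted p = 0.00105).

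From a list of FOXO targets, 7 of 14 isolated-site genes rose with dex and S961 and 3 fell (median 0.65). In the whole list 15 of 36 tested genes rose and 3 fell, and of all genes 2.70% rose and 7.90% fell. Sesn1, a stress-induced inhibitor of mTORC1 whose site lies 114 bp from the TSS, was at 4.23, 4.45, 5.03, and 3.25 RPKM with vehicle and at 13.5, 19.7, 12.2, and 13.3 RPKM with both agents (1.67 ± 0.16, limma adjusted p = 4.5e-06). Pnpla2, with the adjoining forkhead word and GRE match, went from 31.8, 29.8, 44.2, and 56.8 to 64.2, 91.4, 65.2, and 87.8 RPKM (0.95 ± 0.19, limma adjusted p = 0.00364). Ppargc1a, a coactivator of fasting metabolism, rose with dex (0.96 ± 0.15, limma adjusted p = 0.00148), with S961 (0.81 ± 0.15, limma adjusted p = 0.00922), and with both (1.08 ± 0.15, limma adjusted p = 0.000230). Angptl8, which insulin is known to raise, and Gadd45a were among those that fell. Angptl8 went to 17.7, 9.87, 10.9, and 13.5 RPKM (-2.21 ± 0.44, limma adjusted p = 0.00338). Gadd45a went to 0.571, 0.580, 0.690, and 0.203 RPKM (-2.02 ± 0.26, limma adjusted p = 0.000138).

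Of the other genes lower with both agents, S1pr1 fell to 6.18, 4.47, 6.88, and 5.77 RPKM (-1.87 ± 0.20, limma adjusted p = 2.0e-05). Slc41a2, a magnesium transporter, fell by 1.53 on the log2 scale (limma adjusted p = 0.00533). In the insulin signalling list, 1 of 8 isolated-site genes rose, Foxo1 itself (0.66 ± 0.09, limma adjusted p = 0.000172), and 2 fell, the kinases Gsk3b (-0.56 ± 0.10, limma adjusted p = 0.00180) and Akt1 (-0.40 ± 0.13, limma adjusted p = 0.0452), whose call was kept without 1 of 8 libraries. Of all genes, 2.70% rose and 7.90% fell with both agents.

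Loss of GR in hepatocytes lowered 6 of the 11 isolated-site GR targets and raised none (median -1.81, all genes 0.08). In the whole list 14 of 28 tested genes fell and 1 rose, and of all genes 2.22% fell and 4.46% rose. Fkbp5, with an isolated site 4585 bp from the TSS besides the full GREs in its introns, was at 70.2, 35.1, 44.3, and 40.3 RPKM with GFP and at 7.57, 7.08, 6.00, and 7.22 RPKM with Cre (-2.64 ± 0.18, limma adjusted p = 3.8e-05). Zbtb16, a zinc-finger repressor, went from 16.3, 8.17, 12.2, and 13.8 to 0.617, 0.573, 0.602, and 0.847 RPKM (-3.46 ± 0.19, limma adjusted p = 6.6e-06). Tsc22d3, which encodes the glucocorticoid-induced leucine zipper, went from 114, 80.9, 103, and 38.4 to 24.0, 21.4, 19.5, and 22.6 RPKM (-1.81 ± 0.28, limma adjusted p = 0.00403). These genes had no overlap between the groups. Fam107a was at 7.60, 1.85, 2.18, and 1.97 RPKM with GFP and at 0.0240, 0.0840, 0, and 0.0190 RPKM with Cre (-2.66 ± 0.34, limma adjusted p = 0.00170). Per1, a clock repressor with a GRE match of 1 mismatch 1855 bp from its TSS, fell by 0.84 on the log2 scale (limma adjusted p = 0.0190), a call lost without Cre replicate 2.

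Eif4ebp3, an inhibitor of translation initiation, had the largest fall in L-GRKO livers, from 123, 99.5, 83.4, and 162 to 5.60, 5.91, 5.32, and 6.32 RPKM (-4.18 ± 0.17, limma adjusted p = 6.2e-07), and shares 67.3% of its exon bases with Ankhd1, so it is uncertain which of them carries the reads. Tmc7, a transmembrane channel-like protein, fell from 7.69, 3.83, 3.43, and 4.76 to 0.399, 0.0290, 0.572, and 0.246 RPKM (-2.73 ± 0.26, limma adjusted p = 0.000336). Slc37a4, the glucose 6-phosphate transporter, was the 1 of 5 isolated-site gluconeogenesis genes that fell (-0.87 ± 0.12, limma adjusted p = 0.00218). Of 7 isolated-site genes of amino acid breakdown 2 fell, among them Aass, which starts the breakdown of lysine, from 168, 99.3, 98.4, and 98.9 to 55.8, 59.4, 62.8, and 60.0 RPKM (-0.92 ± 0.16, limma adjusted p = 0.00770). In the whole lists 3 of 15 gluconeogenesis genes and 14 of 31 genes of amino acid breakdown fell, where 2.22% of all genes did.

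Of the 13 lipid synthesis genes 6 rose in L-GRKO livers, among them Acaca, Elovl5, Fads1, Fads2, and Me1, 1 fell, and 6 were not called (median 0.40, all genes 0.08). In the whole list 8 of 26 tested genes rose and 2 fell, and of all genes 4.46% rose and 2.22% fell. The call of Fads1 was kept without 2 of 8 libraries, those of Acaca and Me1 without 6, and those of Elovl5 and Fads2 whichever of the 8 was left out. Elovl5 was at 48.8, 40.9, 42.8, and 34.0 RPKM with GFP and at 102, 134, 111, and 86.6 RPKM with Cre (1.36 ± 0.14, limma adjusted p = 0.000508). Fads2, a fatty acid desaturase, rose by 0.57 ± 0.11 (limma adjusted p = 0.0107). The largest rises were in Gas1, a growth arrest protein at the cell surface (from 1.34, 2.06, 3.24, and 1.60 to 6.30, 7.65, 6.98, and 5.55 RPKM, 1.52 ± 0.20, limma adjusted p = 0.00194), in Gadd45a (1.63 ± 0.27, limma adjusted p = 0.00624), in D130043K22Rik (1.49 ± 0.18, limma adjusted p = 0.00109), and in Snord99, a short RNA inside exons of another transcript whose reads are uncertain (1.73 ± 0.33, limma adjusted p = 0.0125).

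In fed mice given dex, loss of Irs1 and Irs2 moved genes of both directions near isolated sites. Nipal1, a magnesium transporter family member, was at 1.63, 1.37, 1.23, and 0.946 RPKM in floxed livers and at 10.6, 17.6, 23.8, and 26.8 RPKM in L-IRSdKO livers (3.43 ± 0.27, limma adjusted p = 0.000515). Ntf3, a neurotrophin, went from 0.818, 0.584, 1.21, and 0.185 to 4.68, 26.8, 28.9, and 32.2 RPKM (4.08 ± 0.57, limma adjusted p = 0.00421). Gpx3, a secreted glutathione peroxidase, went from 5.06, 7.74, 5.54, and 5.73 to 11.7, 195, 225, and 224 RPKM (4.02 ± 0.85, limma adjusted p = 0.0151). Krt23, a keratin with its site 68 bp from the TSS, went from 0.537, 0.852, 0.531, and 1.14 to 1.96, 26.9, 32.8, and 31.5 RPKM (3.72 ± 0.76, limma adjusted p = 0.0134). In the last 3 genes L-IRSdKO replicate 1 lay far below the other 3 livers, and without it the log2 differences were 4.71 for Ntf3, 5.06 for Gpx3, and 4.63 for Krt23.

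The largest falls in L-IRSdKO livers were in C4a, Cyp21a1, Serpina12, and Dct. C4a, a complement gene that is nearly identical to C4b and therefore uncertain, was at 57.0, 64.8, 64.6, and 66.7 RPKM in floxed livers and at 2.67, 0.444, 3.96, and 1.09 RPKM in L-IRSdKO livers (-4.89 ± 0.42, limma adjusted p = 0.000625). Cyp21a1, the steroid 21-hydroxylase, shares the site of C4a and was at 4.01, 7.23, 9.63, and 7.53 against 0.143, 0, 0.140, and 0 RPKM (-3.69 ± 0.26, limma adjusted p = 0.000403). Serpina12, the adipokine vaspin, fell from 8.40, 12.2, 6.03, and 13.0 to 0.592, 0.0640, 0.797, and 0.181 RPKM (-3.54 ± 0.33, limma adjusted p = 0.000916). Dct, an enzyme of melanin synthesis, fell by 3.52 on the log2 scale (limma adjusted p = 0.000625). All 4 had no overlap between the groups.

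Of the 14 isolated-site FOXO targets, 4 rose in L-IRSdKO livers, Pnpla2, Ppargc1a, Sesn1, and Ulk1, and 2 fell, among them Angptl8 (median 0.09, all genes 0.03). In the whole list 12 of 37 tested genes rose and 3 fell, and of all genes 9.06% rose and 8.31% fell. Pnpla2 went from 52.1, 36.7, 49.8, and 42.7 to 76.6, 125, 135, and 128 RPKM (1.33 ± 0.19, limma adjusted p = 0.00421), and Ppargc1a from 3.14, 4.41, 6.51, and 2.85 to 14, 21.4, 23.8, and 22.2 RPKM (2.18 ± 0.25, limma adjusted p = 0.00204). Sesn1 was at 19.6, 13.7, 10.00, and 10.7 against 16.9, 63.1, 83.8, and 76.6 RPKM, with replicate 1 inside the range of the floxed livers (1.94 ± 0.47, limma adjusted p = 0.0242). Without that replicate the log2 difference of Sesn1 was 2.46 ± 0.22 (limma adjusted p = 0.000235), and the call was lost without each of 6 other libraries in turn. Of the fat use genes 6 of 14 rose and none fell (median 0.31), and of the lipid synthesis genes 2 of 13 rose and 5 fell (median -0.29). In the whole lists 12 of 27 fat use genes rose and none fell, and 3 of 26 lipid synthesis genes rose and 11 fell. Without replicate 1, 5 of the 14 FOXO targets rose and 2 fell, 7 of the 14 fat use genes rose and 1 fell, and 3 of the 13 lipid synthesis genes rose and 7 fell. Arrdc2, which rose with dex and S961, fell here from 81.7, 43.9, 28.6, and 47.6 to 16.3, 7.38, 12, and 5.99 RPKM (-2.22 ± 0.36, limma adjusted p = 0.00640). The markers of sinusoidal endothelium among isolated-site genes, Lyve1, Oit3, and Stab2, all rose, and so did 1 more of the 6 endothelial markers listed. Lyve1 went from 7.27, 6.92, 5.42, and 7.64 to 17.3, 26.9, 24.7, and 12.7 RPKM (1.47 ± 0.23, limma adjusted p = 0.00527).

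**Figure D4:**
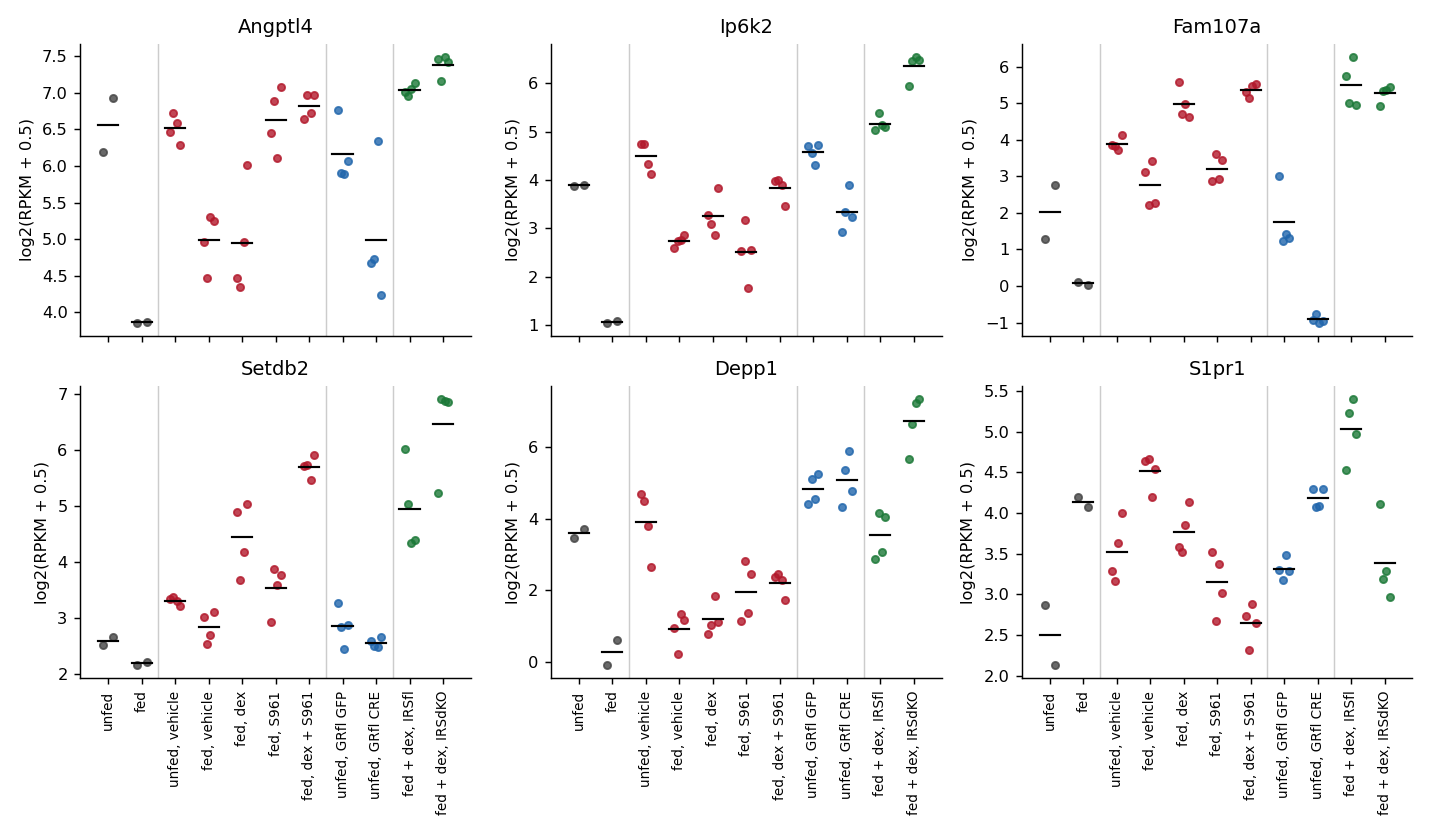
Log2(RPKM + 0.5) per mouse (y axis) in 11 groups (x axis) for Angptl4, Ip6k2, Fam107a, Setdb2, Depp1, and S1pr1, with a point for each mouse and a line at the mean on the log scale. Setdb2 is at 43.4 to 59.5 RPKM with dex and S961 and at 5.33 to 8.13 RPKM with vehicle.

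The remaining lists had few calls. Among 14 liver transcription factors, the meal lowered Nfil3 in uninjected mice and raised Klf10 in vehicle-injected ones (0.70 ± 0.18, limma adjusted p = 0.0378, lost with replicates 1 to 3 alone). S961 raised Klf10 (1.22 ± 0.18, limma adjusted p = 0.00168), and dex with S961 raised Nfil3 (0.86 ± 0.24, limma adjusted p = 0.0247) and Cebpb (1.11 ± 0.33, limma adjusted p = 0.0366, with overlap). Loss of Irs1 and Irs2 lowered Cebpa (-0.37 ± 0.08, limma adjusted p = 0.0174) and raised Stat5b (0.54 ± 0.12, limma adjusted p = 0.0199). Loss of GR raised Cebpa (0.61 ± 0.12, limma adjusted p = 0.0144) and lowered Cebpd (-1.19 ± 0.23, limma adjusted p = 0.0140) and Cebpb (-0.65 ± 0.16, limma adjusted p = 0.0378, with overlap). Both calls of Cebpb were kept without 2 of 8 libraries and lost without any of the others. Cebpb shares 20.7% of its exon bases with Tmem189. Of 4 clock genes tested, loss of GR lowered 1, Per1, and raised 1.

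In lean and obese mice, described without a test, Angptl4 was at 116, 114, and 121 RPKM in lean unfed, 19.1, 20.7, and 16.0 in lean fed, 42.4, 71.2, and 77.8 in DIO unfed, and 69.2, 56.6, and 44.0 RPKM in DIO fed mice. The DIO fed and unfed mice overlap, and both lie between the lean groups. Ip6k2 was at 33.5, 29.0, and 33.3 RPKM in lean unfed, 4.13, 5.85, and 4.26 in lean fed, 19.1, 16.4, and 11.8 in DIO unfed, and 7.30, 8.80, and 4.80 RPKM in DIO fed mice. Its DIO groups do not overlap, and DIO unfed mice lie below every lean unfed mouse.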

How the data were processed

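RNA was sequenced in 54 liver libraries, and GR, FOXO1, and DHS regions were given as lists of positions. The authors aligned reads with STAR to mm9 and deposited RPKM per RefSeq transcript, from ribosome-depleted RNA in the uninjected NRF mice and poly(A) RNA elsewhere. RPKM alone does not give the depth of a library and lets highly abundant transcripts shift all others. The paper lists read numbers for libraries of the L-GRKO, L-IRSdKO, and diet mice, which were not used here. GR and FOXO1 peaks were called by the authors with HOMER against input at a false discovery rate of 0.001 and kept when present in both replicates, and DHSs were called at the same rate on the pooled reads of fed and unfed DNase libraries. The deposited lists carry no peak height. 0 columns of values were left unused.

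Sites were joined to mm9 sequence and GENCODE genes, with a gene's TSS within 50 kb. Symbols were reduced to the transcript with the highest mean. Values of each experiment, as log2(RPKM + 0.5), entered limma 3.58.1 (R 4.3.3) with a variance trend, a filter at a mean of 0.5 RPKM, and no replicate block, and p-values were adjusted by Benjamini-Hochberg. Fold changes on this scale understate the change of low genes. Shares have 95% Wilson and Newcombe intervals, computed with Python 3.11.15, numpy 2.4.6, and pandas 2.3.3. The procedure was tested on simulated data.

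Genes were named by rule: isolated-site genes of pathway lists, up to 4 highest and 4 lowest called genes per comparison whose groups do not overlap, and the knocked-out genes. The text gives values for part of the first kind, and these were picked after their values were seen. A few genes covered by this rule are not reported here. The sites and lists were chosen with earlier results of these data known. The labels give separate mice, but no culture or batch. The S961 dose and the time of virus injection are given in more than one way in the sources, and so is the GR antibody. H3K27Ac and binding by condition were not analysed here. Alternatives were other pseudocounts, filters, scalings, windows, distances, motif rules, a replicate block, the compared groups alone, replicates 1 to 3, and each library left out.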

Additional observations from a re-analysis of the deposited data

Results flagged for a closer look

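In groups of 4 mice, 7 of 88 gene and group pairs tested had a lowest or highest value far from the other 3, where chance gives about 1 in 20. In unfed vehicle replicate 4, Hyou1 was at 31.1 RPKM (others 18 to 18.6). In L-GRKO livers, Zbtb16 was at 0.847 RPKM in replicate 4 (others 0.573 to 0.617), and in the GFP livers of that experiment Fam107a was at 7.60 RPKM in replicate 1 (others 1.85 to 2.18). In L-IRSdKO livers, Gpx3 was at 11.7 RPKM in replicate 1 (others 195 to 225), Irs2 at 0.272 RPKM in replicate 1 (others 0.886 to 1.00), and Irs1 at 0.321 RPKM in replicate 3 (others 0.149 to 0.170). In floxed livers without Cre, Irs1 was at 2.21 RPKM in replicate 1 (others 4.50 to 4.73). No reason for these values was tested.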

How the results depend on the processing

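Shares of isolated sites moved with the definition. A DHS covering at least 0.5 of the peak gave 71.4%, TSS windows of 1 and 5 kb gave 10.1% and 29.0%, and sequence windows of 100 and 400 bases gave GRE shares of 7.39% and 10.7% and forkhead shares of 8.11% and 18.7%. At most 1 or 3 mismatches gave GRE shares of 2.09% and 27.5%, the word TGTTTNC gave 35.3%, and the FOXO1 midpoint, chosen after seeing the data, gave a forkhead share of 15.4%. Isolation distances of 5 and 20 kb gave 3874 and 2597 sites.

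Counts of isolated-site genes, higher and then lower, are given for the meal in uninjected mice, the meal with vehicle, dex, S961, dex with S961, L-GRKO, and L-IRSdKO where they moved by over 1.5 times. With no filter they were 0 and 0 (limma, with 550 and 223 at an unadjusted p under 0.05), 22 and 11, dex lower 38, S961 20 and 17, L-GRKO 35 and 26, and L-IRSdKO 128 and 114. A mean of at least 2 RPKM gave 35 and 33 for the uninjected meal. Quantile normalization gave 12 higher for the uninjected meal, 26 and 35 for vehicle, 32 lower for dex, 16 lower for S961, and 86 lower for dex with S961. Median-ratio scaling gave 23 higher for vehicle, 30 lower for dex, 77 lower for dex with S961, and 97 higher for L-GRKO. No variance trend gave 14 and 10 for the uninjected meal. The compared groups alone gave 11 higher for the uninjected meal, 12 lower for vehicle, 18 and 11 for dex, and 5 and 3 for S961. Replicates 1 to 3 gave 103 and 52 for vehicle and 79 and 155 for dex. A window of 20 kb, with fewer genes, gave 9 higher for the uninjected meal, 22 higher for vehicle, 16 lower for S961, 101 lower for dex with S961, and 171 and 184 for L-IRSdKO.

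Replicate numbers are shared between groups. Same-numbered injected mice had correlations of their deviations of 0.49 to 0.61 for replicate 4 but -0.12 to 0.32 for the others. All were above 0 for the meal with vehicle and for dex, with the lowest at 0.05 and 0.02. With S961 the lowest was -0.12, and with dex and S961 -0.01. Because the lowest were near or below 0, the numbers were not taken as pairs. The main fits therefore leave out the shared deviation of replicate 4. The replicate block gave 5 and 11 for the uninjected meal, 129 and 58 for vehicle, 85 and 173 for dex, 74 and 49 for S961, 297 lower for dex with S961, and 197 lower for L-IRSdKO.

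Leaving out 1 library gave ranges of 0 to 33 and 1 to 43, 10 to 58 and 6 to 28, 28 to 56 and 24 to 92, 20 to 49 and 13 to 37, 88 to 120 and 90 to 159, 68 to 163 and 71 to 99, and 140 to 372 and 148 to 413. Counts moved by over 1.5 times for the uninjected meal without either fed mouse (0 higher, with 454 and 265 at an unadjusted p under 0.05) or unfed replicate 1 or 2, for vehicle without replicates 1, 2, or 3 of either group, for dex without dex replicates 1, 2, or 4 or fed vehicle 2 or 3, for S961 without S961 replicates 2 or 4 or fed vehicle 1 or 2, for dex with S961 without its replicates 2 or 4 or fed vehicle 2, for L-GRKO without Cre 1, 2, or 3 or GFP 2, and for L-IRSdKO without L-IRSdKO 2, 3, or 4 or floxed 4. Of 178 named calls, 108 were kept without each library in turn, and no named call changed direction under any alternative. The cause of these moves was not tested. Depth was not set against single values in RPKM, and 2 mice per group limit the uninjected meal.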
